A study of Mus musculus with 2 samples.

Results

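The miR-17-92 cluster and its 2 paralogs were described in mouse embryonic stem cells that lack Dicer, from small RNA sequencing counts. Members were all entries of the count table named miR-17, miR-18, miR-19, miR-20, miR-25, miR-92, miR-93, miR-106 or miR-363, with any letter or copy suffix and either arm; the rule uses names only. There were 30 such entries among 1907. Both samples were Dicer knockout cells of 129/Ola background, labelled with the developmental stage E14 and grown on gelatine with serum and the cytokine LIF. They are called library 1 (described as C1) and library 2 (described as H11) after the numbers in their titles. They form 1 group of 2 replicates, and nothing in the labels says whether they are separate clones or how Dicer was removed, so the spread between them may be technical. No sample of another genotype was analysed here, so no change caused by the loss of Dicer could be measured.

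Dicer is the ribonuclease that cuts a precursor hairpin into a duplex of its 5′ arm (5p) and 3′ arm (3p). A single strand, the guide, is then loaded into an Argonaute protein and recognises messenger RNAs through its seed, bases 2 to 8 counted from the 5′ end, while the other strand, the passenger, is mostly degraded. The miR-17-92 cluster is a polycistron: 1 primary transcript carries several hairpins, and its 2 paralogs arose by duplication. These miRNAs are known for promoting proliferation and survival, through targets such as the pro-apoptotic gene Bim, and they are expressed in embryonic stem cells.

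The hairpins lie in 3 clusters and at 1 separate site (GRCm38, the assembly called mm10; positions and sequences from RefSeq, GRCm38.p6). The miR-17-92a cluster has 6 hairpins on chr14:115043671-115044506, plus strand, over exons of the host lincRNA Mir17hg, in the order Mir17, Mir18, Mir19a, Mir20a, Mir19b-1 and Mir92-1. The miR-106a-363 cluster has 6 hairpins on chrX:52741693-52742567, minus strand, in the order Mir106a, Mir18b, Mir20b, Mir19b-2, Mir92-2 and Mir363. GENCODE M21 annotates an exon of the transcript Kis2 over the first of these and no host gene over the other 5. The miR-106b-25 cluster has 3 hairpins on chr5:138165321-138165818, minus strand, inside Mcm7, which encodes a subunit of the replicative helicase. The hairpin of miR-106b is intronic, and those of miR-93 and miR-25 are overlapped by an exon of at least 1 Mcm7 transcript. The hairpin of miR-92b stands alone on chr3:89227116-89227198, minus strand, outside other genes; it matches the naming rule but belongs to none of the 3 clusters.

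RefSeq held mature sequences for 28 of the 30 entries; miR-19a-5p and miR-363-5p had none. The guide-arm seeds define the families. Capitals mark the seed, and the sequences are given because seed and family decide how the counts below are grouped. The miR-17 family, made up of miR-17, miR-20, miR-93 and miR-106 members, shares the seed AAAGUGC.
miR-17-5p: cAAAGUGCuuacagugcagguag
miR-20a-5p: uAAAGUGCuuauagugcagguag
miR-20b-5p: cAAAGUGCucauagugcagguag
miR-93-5p: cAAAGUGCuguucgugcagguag
miR-106a-5p: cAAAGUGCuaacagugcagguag
miR-106b-5p: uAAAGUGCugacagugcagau

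Within this family miR-106a-5p differed from miR-17-5p by the single substitution U10A, and miR-20b-5p from miR-20a-5p by U1C and U10C (positions counted from 1 at the 5′ end; the base of miR-17-5p or miR-20a-5p is written first). The miR-18 pair differs from the first family inside the seed, by A4G from miR-17-5p to miR-18a-5p, and miR-18b-5p differs from miR-18a-5p by A18U and A20U.
miR-18a-5p: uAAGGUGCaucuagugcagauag
miR-18b-5p: uAAGGUGCaucuagugcuguuag

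The miR-19 family and the miR-92 family (miR-25, miR-92 and miR-363) carry their guide on the 3p arm. miR-19b-3p differs from miR-19a-3p by U11C. Over their 21 shared positions miR-92b-3p differs from miR-92a-3p by U10C and G21C, and miR-25-3p by U1C, C14U and C18U.
miR-19a-3p: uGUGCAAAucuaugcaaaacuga
miR-19b-3p: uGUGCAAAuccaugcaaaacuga
miR-25-3p: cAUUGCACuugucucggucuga
miR-92a-3p: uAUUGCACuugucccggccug
miR-92b-3p: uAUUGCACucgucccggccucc
miR-363-3p: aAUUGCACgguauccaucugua

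The guide arms miR-19b-3p and miR-92a-3p are each produced with identical sequence by a hairpin on chromosome 14 and another on chromosome X, so their counts cannot be assigned to a cluster. Only the opposite arms tell the copies apart. The hairpins of miR-92a are shown with the mature arms in capitals; that on chromosome 14 lies on chr14:115044427-115044506, plus strand, and that on chromosome X on chrX:52741838-52741928, minus strand.
Mir92-1: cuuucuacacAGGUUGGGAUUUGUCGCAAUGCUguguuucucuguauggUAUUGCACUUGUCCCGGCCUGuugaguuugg
Mir92-2: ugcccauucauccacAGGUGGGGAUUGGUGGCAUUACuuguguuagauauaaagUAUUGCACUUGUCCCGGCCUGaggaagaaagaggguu

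The counts were shallow. Library 1 held 45222 counts assigned to miRNAs and library 2 held 37476, so that a single count equals 22.1 CPM (counts scaled to a library total of 1000000) and 26.7 CPM. A count of 0 allows up to 3 counts, or 66.3 and 80.1 CPM; intervals and such limits cover counting error only. Among markers of the labelled cell type, embryonic stem cells, the miR-290 cluster had a count in 14 of 16 entries. It made up 3.43% ± 0.271 (SD, n = 2) of all counts. Markers of differentiated cells and fibroblasts (let-7, miR-98, miR-143, miR-145a, miR-199a and miR-214) had counts in 13 of 31 entries and made up 0.0769% ± 0.00691 (SD, n = 2). Blood markers had counts in 2 of 7 and made up 0.0177% ± 0.0062 (SD, n = 2). Of the 10 entries of miR-302 and miR-367, also stem cell markers, 2 had counts, summing to 4 in each library. All these markers are miRNAs and both samples lack Dicer. Their shares therefore cannot check the cell type apart from the loss of Dicer, and the cell type was not tested.

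Members held a small share of all counts, mostly through 1 miRNA. The 30 entries held 464 counts, 1.03% of library 1 (95% Wilson interval 0.937 to 1.12), and 409 counts, 1.09% of library 2 (0.991 to 1.20). Most counts lay outside the miRNAs numbered 1000 or below, which summed to 11624 in library 1 and 7784 in library 2. Of the counts of those miRNAs, members held a mean of 4.62%. Shares of all counts, CPM and ranks therefore depend on the abundant later-numbered entries. Of the 30, 20 had a count in both libraries, 5 in 1 library only and 5 in neither. The 5 entries at 0 in both were miR-19a-3p, miR-19b-2-5p, miR-92a-2-5p, miR-92b-5p and miR-363-5p. Among all 843 miRNAs numbered 1000 or below 59.1% were at 0 in both libraries, against 16.7% of the members. With detection set at 10 counts in each library, 6 members were detected: miR-92a-3p, miR-18b-5p, miR-25-3p, miR-93-5p, miR-106b-5p and miR-92b-3p. All 6 are guide arms. This was 20% of the members, beside 4.20% of all miRNAs in the table and 7.71% of those numbered 1000 or below. The members are a complete set of related entries, so these percentages carry no interval.

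**Figure D1:**
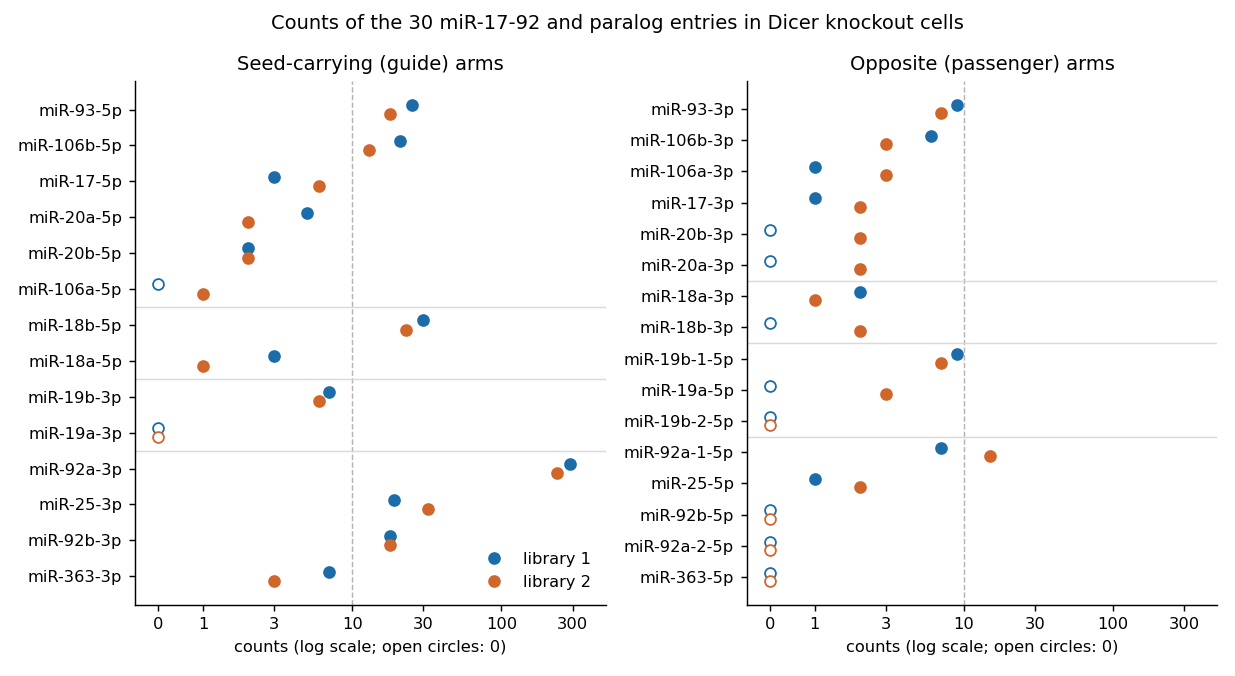
Counts of each member (horizontal axis, logarithmic, open circles for 0) in library 1 (blue) and library 2 (orange), guide arms on the left and opposite arms on the right, with grey lines between seed families and a dashed line at 10 counts. miR-92a-3p, with 288 and 235 counts, stands apart from the other 29 entries, none of which exceeded 32.

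The miR-92 family led by a wide margin. Here and in what follows, a pair of values gives library 1 first and library 2 second. Its most abundant member, miR-92a-3p, was counted 288 times in library 1 and 235 times in library 2, or 6320 ± 69.2 CPM (SD, n = 2). It ranked 13th of all entries in each library. It held 59.8% ± 3.26 (SD, n = 2) of all member counts, and 9.6 times the counts of the next member in library 1 and 7.34 times in library 2. miR-25-3p had 19 and 32 counts, 637 ± 307 CPM (SD, n = 2), the highest after miR-92a-3p in library 2. miR-92b-3p had 18 counts in each library, 439 ± 58.2 CPM (SD, n = 2). miR-363-3p, from the last hairpin of the chromosome X cluster, had 7 and 3 counts, below the detection minimum in both.

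In the miR-17 family the counts came mainly from the chromosome 5 cluster. miR-93-5p had 25 and 18 counts, 517 ± 51.3 CPM (SD, n = 2). miR-106b-5p had 21 and 13, or 406 ± 83.1 CPM (SD, n = 2). These 2 entries held 46 of the family's 56 guide counts in library 1, 82.1% (95% Wilson interval 70.2 to 90.0), and 31 of 42 in library 2, 73.8% (58.9 to 84.7). The 4 near-identical guide arms of the other clusters stayed below 10 counts in each library. miR-17-5p had 3 and 6 counts, miR-20a-5p had 5 and 2, and miR-20b-5p had 2 in each. miR-106a-5p, which differs from miR-17-5p at 1 base, had 0 counts in library 1 and 1 in library 2. Among these 4 the differences were too small to be ordered at this depth. Because the other 3 differ from miR-17-5p by 1 or 2 bases and the treatment of reads that match several sites is not given in the sources used here, the split of counts among them is uncertain.

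The 2 members of the miR-18 family differed from each other. miR-18b-5p, from the chromosome X cluster, had 30 and 23 counts, 639 ± 35.1 CPM (SD, n = 2). miR-18a-5p, from the chromosome 14 cluster, had 3 and 1. The miR-18b-5p share of the pair was 90.9% in library 1 (95% Wilson interval 76.4 to 96.9) and 95.8% in library 2 (79.8 to 99.3), above an even split in both. Because the 2 sequences differ only by A18U and A20U, the split of counts between them depends on how the authors assigned near-identical reads, which is not given in the sources used here. In the miR-19 family miR-19b-3p had 7 and 6 counts, 157 ± 3.75 CPM (SD, n = 2), and miR-19a-3p had none. The Wilson intervals of their shares of member counts overlapped in both libraries, so the pair was not ordered on that measure. A share within the pair, as given for miR-18, was not computed for miR-19.

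Summed over guide arms, the families kept 1 order in both libraries. The miR-92 family held 332 of 428 guide counts in library 1, 77.6% (95% Wilson interval 73.4 to 81.3), and 288 of 360 in library 2, 80.0% (75.6 to 83.8). The miR-17 family held 13.1% (10.2 to 16.6) and 11.7% (8.75 to 15.4). The miR-18 family held 7.71% (5.54 to 10.6) and 6.67% (4.52 to 9.73). The miR-19 family held 1.64% (0.795 to 3.34) and 1.67% (0.766 to 3.59). The first family's intervals lay apart from all others in both libraries, and so did those of the miR-19 family; the intervals of the miR-17 and miR-18 families overlapped. The lead of the first family rested on 1 entry. Without miR-92a-3p it held 31.4% (24.3 to 39.5) of the remaining guide counts in library 1 and 42.4% (34.1 to 51.2) in library 2. The miR-17 family then held 40% (32.3 to 48.3) and 33.6% (25.9 to 42.3), and the order of the 2 differed between the libraries.

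**Figure D2:**
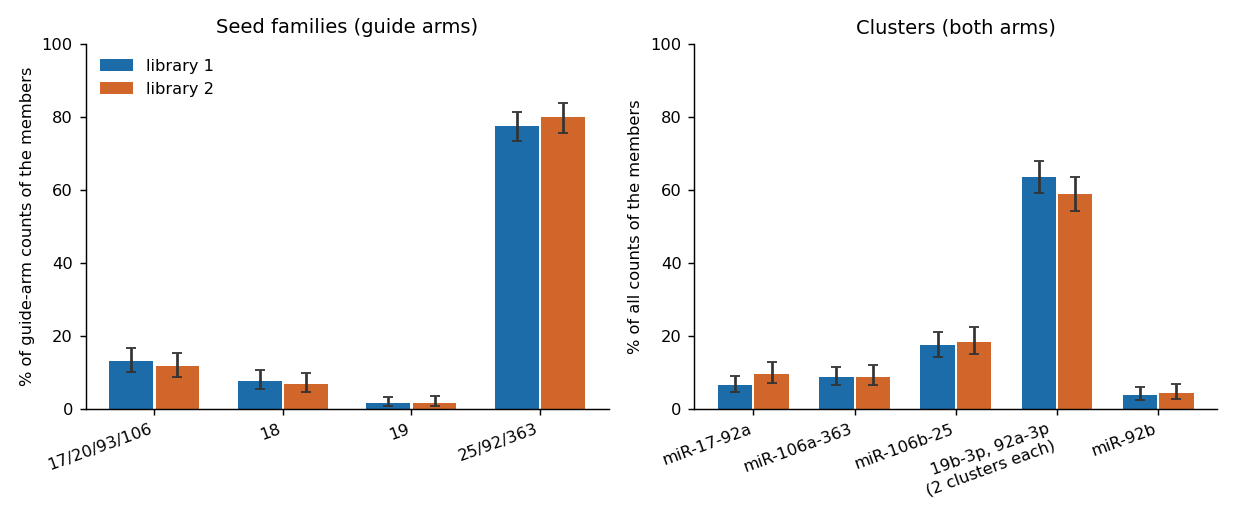
Left, percent of guide-arm counts in each seed family (labelled by the numbers of its miRNAs); right, percent of all member counts in each cluster, with the 2 entries that 2 clusters produce kept apart. Bars are library 1 (blue) and library 2 (orange), error bars are 95% Wilson intervals; the miR-92 family holds 77.6% and 80.0%, and the entries of 2 clusters hold 63.6% and 58.9%.

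Other miRNAs with the same seeds added few counts. The seed AUUGCAC of the miR-92 family is shared in the table by miR-32-5p, with 2 counts in library 1 and 7 in library 2, and by miR-367-3p, with none. The seed AAAGUGC is shared by miR-6383, also at 0, and the seeds of miR-18 and miR-19 by no further entry with a sequence. Bases 3 to 8 of miR-17-5p, AAGUGC, also occur within the seeds of 3p arms of the miR-290 cluster, of which miR-295-3p is shown for comparison.
miR-17-5p: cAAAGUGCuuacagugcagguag
miR-295-3p: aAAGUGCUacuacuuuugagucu

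There the letters start 1 base earlier, so the full seeds differ. The 6 members with AAGUGC in the seed summed to 56 counts in library 1 and 42 in library 2, or 1238 and 1121 CPM. Among entries with a sequence, 5 arms of the miR-290 cluster carried it in the seed (miR-290a-3p, miR-291a-3p, miR-291b-3p, miR-294-3p and miR-295-3p). They summed to 377 and 376 counts, or 8337 and 10033 CPM. miR-292a-3p, with 41 and 27 counts, and miR-302a-3p, with 0 in both libraries, had no sequence and were left out. The 2 arms of miR-302 with a sequence that carried it, miR-302b-3p and miR-302d-3p, had none. In both libraries the miR-290 cluster thus contributed more counts with this hexamer than the miR-17 family did.

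Compared by cluster, most member counts could not be placed. The 2 entries from both chromosomes 14 and X, miR-92a-3p and miR-19b-3p, held 63.6% of member counts in library 1 (95% Wilson interval 59.1 to 67.8) and 58.9% in library 2 (54.1 to 63.6). Of the counts that could be placed, the miR-106b-25 cluster had 81 in library 1 and 75 in library 2, which is 17.5% (14.3 to 21.2) and 18.3% (14.9 to 22.4) of all member counts. The miR-106a-363 cluster had 40 and 36, or 8.62% (6.39 to 11.5) and 8.80% (6.43 to 11.9). The miR-17-92a cluster had 30 and 39, or 6.47% (4.57 to 9.08) and 9.54% (7.05 to 12.8). The intervals of miR-106b-25 lay above those of the other 2 clusters in both libraries, while the intervals of those 2 overlapped. This order holds for placed counts only: giving the shared entries to either miR-17-92a or miR-106a-363 raised that cluster to a mean of 69.2% or 70.0%.

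Along the hairpins, the miR-106a-363 and miR-17-92a clusters were uneven. In miR-106a-363 the single entry miR-18b-5p made up 75% of the counts in library 1 and 63.9% in library 2. The other 3 guide arms specific to this cluster, miR-106a-5p, miR-20b-5p and miR-363-3p, summed to 9 and 6. In miR-17-92a the 4 specific guide arms (miR-17-5p, miR-18a-5p, miR-20a-5p and miR-19a-3p) summed to only 11 and 9 counts. More than that came from the passenger arms of the last 2 hairpins of this cluster. miR-92a-1-5p had 7 and 15 counts, and miR-19b-1-5p had 9 and 7. In miR-106b-25 all 3 guide arms passed 10 counts in both libraries. miR-106b-5p, miR-93-5p and miR-25-3p had 21, 25 and 19 in library 1 and 13, 18 and 32 in library 2.

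**Figure D3:**
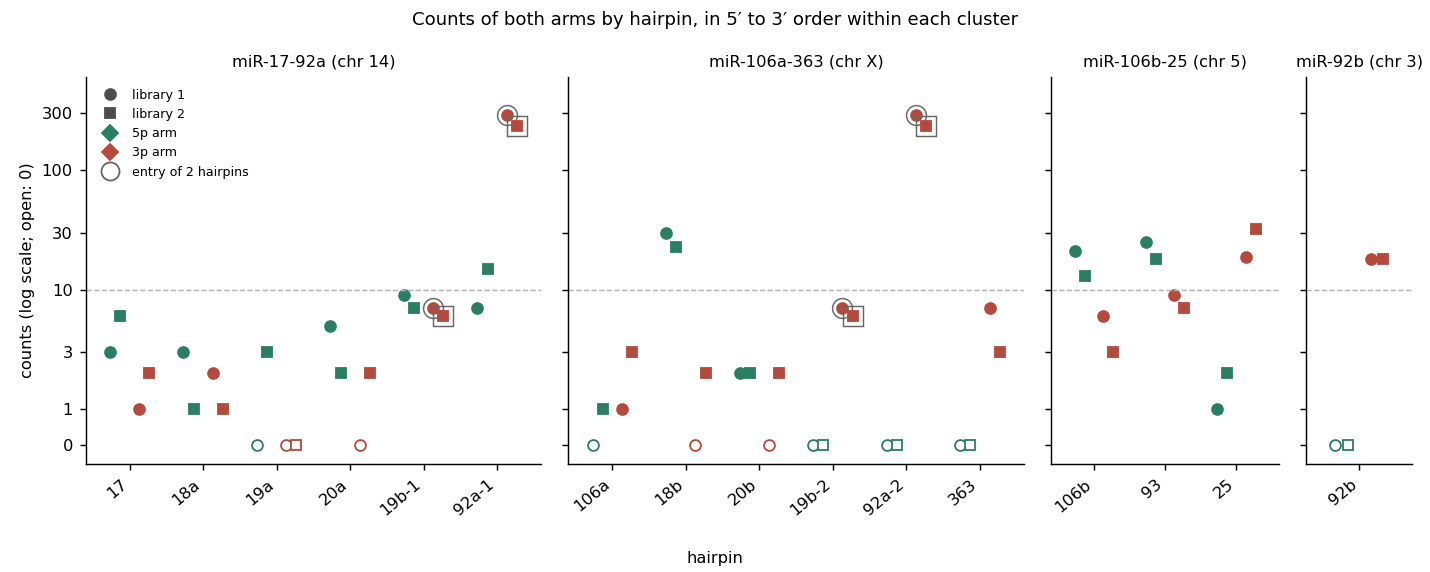
Counts (vertical axis, logarithmic, open symbols for 0) of the 5p arm (green) and 3p arm (red) of every hairpin in library 1 (circles) and library 2 (squares), in the order of transcription within each cluster. Large outlines mark entries that 2 hairpins produce, drawn at both; on chromosome X the 5p arms of 19b-2 and 92a-2 are at 0 in both libraries, and 18b is the only cluster-specific arm above 10 counts.

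The passenger arms separated the 2 genomic copies. From chromosome 14, miR-92a-1-5p had 7 and 15 counts, and its chromosome X counterpart miR-92a-2-5p had 0 in both libraries. The share of the chromosome 14 copy was therefore 100% in each, with 95% Wilson intervals from 64.6% in library 1 and from 79.6% in library 2. For the miR-19b copies, miR-19b-1-5p had 9 and 7 counts and miR-19b-2-5p had 0 in both, with intervals from 70.1% and from 64.6%. In both pairs counts were found for the chromosome 14 arm only. The 4 sequences differ enough to be told apart over their length.
miR-92a-1-5p: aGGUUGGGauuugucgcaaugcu
miR-92a-2-5p: aGGUGGGGauugguggcauuac
miR-19b-1-5p: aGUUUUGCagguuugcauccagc
miR-19b-2-5p: aGUUUUGCagauuugcaguucagc

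These arms measure how often the 5p strand of each copy was counted, not how much 3p strand each copy gave. For miR-18 the order was the other way, with more counts for the chromosome X entry miR-18b-5p than for miR-18a-5p. For miR-17-5p against miR-106a-5p (3 and 6 counts against 0 and 1) and miR-20a-5p against miR-20b-5p (5 and 2 against 2 and 2) the Wilson intervals of the chromosome 14 share included an even split in both libraries.

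Most member counts came from guide arms, and most of these from the 3p side. Guide arms, 14 of the 30 entries, held 428 of 464 counts in library 1, 92.2% (95% Wilson interval 89.5 to 94.3), and 360 of 409 in library 2, 88.0% (84.5 to 90.8). The 3p arm held 77.2% of member counts in library 1 (73.1 to 80.7) and 77.3% in library 2 (73.0 to 81.1). Over all hairpins of the table with both arms listed, the 5p arm held 79.8% ± 3.74 (SD, n = 2) and over member hairpins 22.8% ± 0.0753 (SD, n = 2). This contrast rested in part on miR-92a: without its hairpins the member 5p share came to 58.6% for library 1 and 49.1% for library 2. These values were still below the 82.45% and 77.17% over all hairpins, from which no abundant hairpin was removed. With copies merged, 7 member hairpins reached 10 counts in each library. Of these, 3 had more 3p than 5p counts in both libraries, namely miR-25, miR-92a and miR-92b, beside 29.3% of all 58 such hairpins. The other 4, miR-18b, miR-19b, miR-93 and miR-106b, had more 5p counts, for miR-19b only by 9 to 7 and 7 to 6.

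The strength of the arm preference differed among families. In the miR-92 hairpins the guide held 97.6% of counts in library 1 (95% Wilson interval 95.4 to 98.8) and 94.4% in library 2 (91.3 to 96.5). For miR-92b all 18 counts in each library were 3p, and for miR-25 the 3p arm had 19 of 20 and 32 of 34. In the miR-17 hairpins the guide held 76.7% (65.8 to 84.9) and 68.9% (56.4 to 79.1), below the miR-92 intervals in both libraries. Within it miR-93-3p, the passenger, had 9 and 7 counts beside 25 and 18 of miR-93-5p. miR-106b-3p had 6 and 3 beside 21 and 13 of miR-106b-5p. The miR-18 hairpins gave 94.3% (81.4 to 98.4) and 88.9% (71.9 to 96.2). In the miR-19 hairpins the 3p guide held 7 of 16 counts in library 1, 43.8% (23.1 to 66.8), and 6 of 16 in library 2, 37.5% (18.5 to 61.4), so that no preference for either arm was detectable at this depth. The share of the less abundant arm had a median over the 7 member hairpins of 5% in library 1 and 8% in library 2, beside 5.72% and 6.78% over all 58 hairpins.

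The remaining passenger arms were at the edge of detection. miR-25-5p and miR-17-3p each had 1 and 2 counts. miR-106a-3p had 1 and 3, and miR-18a-3p had 2 and 1. The entries counted in library 2 only were miR-18b-3p, miR-20a-3p and miR-20b-3p with 2 counts each and miR-19a-5p with 3. A count of 0 in library 1 allows 3 counts, so no difference between the libraries was detectable for these 4.

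The libraries were then compared with each other to see how far member counts varied between replicates. Each miRNA with at least 10 counts in total was tested by a two-sided Fisher's exact test of its share of the library, with Benjamini-Hochberg adjustment over all 129 miRNAs tested. This compares 2 libraries, not conditions, and 1 library on each side leaves no replicate check. A call needed an adjusted p below 0.05 and a 2-fold difference in CPM. Of the 11 members tested 0 were called, beside 7.75% of all miRNAs tested. At an unadjusted p below 0.05 there were 2 members, beside 23.3% of all tested. The median absolute log2 difference was 0.20 over the 11 members and 0.52 over all 129.

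The member that differed most clearly was miR-25-3p, at 420 CPM for library 1 and 854 for library 2, a ratio of 2.03 (95% interval 1.12 to 3.80). Fisher's exact test gave an adjusted p of 0.0794. With the sum over only those miRNAs numbered up to 1000 as the library size, the ratio was 2.52 and miR-25-3p was called (Fisher's exact test, adjusted p = 0.0105). The passenger arm miR-92a-1-5p had 155 and 400 CPM, a ratio of 2.59 (0.993 to 7.50), with an adjusted p of 0.150 in Fisher's exact test. miR-92a-3p had 6369 and 6271 CPM, a ratio of 0.985 with the narrowest interval among the members, 0.825 to 1.17. For miR-18b-5p the interval of the ratio was 0.513 to 1.65, for miR-93-5p 0.447 to 1.66 and for miR-106b-5p 0.344 to 1.56. For these 3 a difference of 1.5-fold in either direction lies inside the interval and could have been missed. For miR-93-5p and miR-106b-5p a 2-fold lower share in library 2 also lies inside it. Members with fewer counts had wider intervals: 0.0863 to 2.27 for miR-363-3p, 0.287 to 3.595 for miR-19b-3p, and 0.297 to 2.83 for miR-19b-1-5p and miR-93-3p. For miR-92b-3p it was 0.592 to 2.46.

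**Figure D4:**
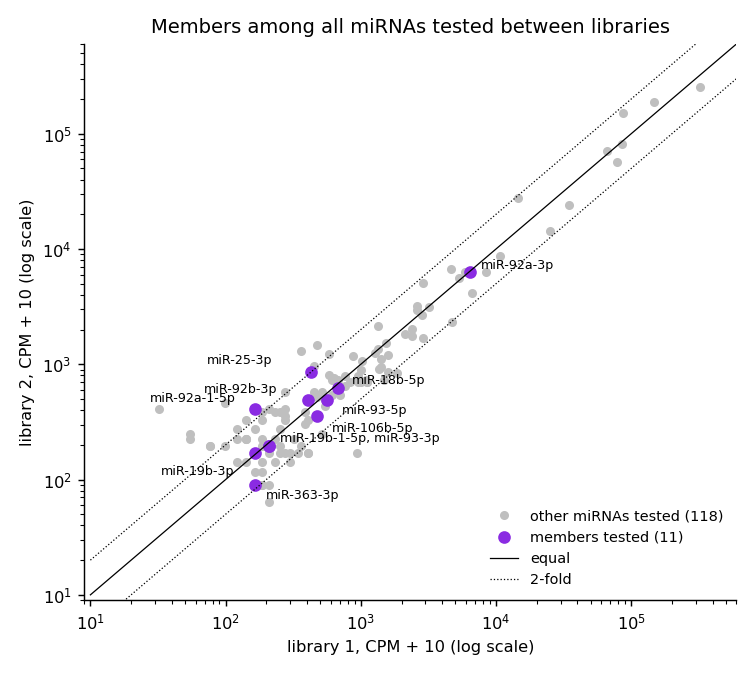
CPM + 10 of every miRNA tested, library 1 (horizontal axis, logarithmic) against library 2 (vertical axis, logarithmic), members in purple and other miRNAs in grey. The solid line marks equal levels and the dotted lines 2-fold differences; 9 of the 11 members lie between the dotted lines, and miR-25-3p and miR-92a-1-5p lie above.

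Seed families and arm use gave the same count of calls between the libraries. Grouping every entry with a sequence by its seed gave 84 seed families with at least 10 counts. Of the 7 that hold members 0 were called by Fisher's exact test with a 2-fold minimum, beside 7.14% of all, and 1 (the seed of miR-92a-1-5p) had an unadjusted p below 0.05, beside 26.2% of all. The AUUGCAC family stood at 7386 CPM and 7872 CPM, a ratio of shares of 1.07 (95% interval 0.908 to 1.25). The AAAGUGC family had 56 and 42 counts, a ratio of 0.905 (0.592 to 1.38). Of the 7 member hairpins tested for a different 5p share in the 2 libraries, 0 were called by Fisher's exact test after Benjamini-Hochberg adjustment, beside 5.17% of the 58 hairpins tested. miR-92a alone had an unadjusted p below 0.05 (6.90% of the 58 did). Its 5p arms held 7 counts in library 1, 2.37% of the hairpin total (95% Wilson interval 1.15 to 4.82), and 15 in library 2, 6% (3.67 to 9.66), with an adjusted p of 0.685 in Fisher's exact test.

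Base composition varied among the guide arms. G and C made up between 34.8% of the guide sequence (miR-19a-3p, at 0 counts) and 63.6% (miR-92b-3p, 18 counts in each library); miR-92a-3p had 57.1%. Across the 14 guide arms, which share the same 2 libraries and in part their sequence, Spearman's rho of GC content with mean CPM was 0.52, given as a description. The part of base composition in these counts was not tested.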

How the data were processed

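Small RNA of total RNA from 2 Dicer knockout samples was prepared by the submitters with the TruSeq small RNA kit, per the labels' protocols. The deposited table gives raw counts for each mature miRNA, as whole numbers without normalization, in 1 column per sample. cutadapt, STAR, featureCounts and the build mm10 are named in the submitters' processing notes. Their settings, the miRNA annotation and the treatment of reads matching several sites are not given in the sources used here, so counts of near-identical members may be split or lost. No molecular identifiers are mentioned. Dicer mRNA is not part of the table.

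CPM was computed on the table total. Over 129 miRNAs the 2 libraries differed by more than counting noise (chi-square 2201 on 128 degrees of freedom) and were counted as 2 samples; over the 11 members tested the chi-square was 12.9 on 10 degrees of freedom (p = 0.227), so no excess over counting noise was detectable among them. The 95% Wilson intervals are given for shares of counts. Ratios of shares carry exact conditional 95% intervals of the odds ratio. Fisher's exact tests with Benjamini-Hochberg adjustment were run over all miRNAs, seed families and hairpins of the table that reached the count minimum. The tests of miRNAs and of arm use were run on simulated data with counting noise only and changes placed in entries with many counts. That check does not cover changes in members with few counts or variation between libraries beyond counting noise. Seeds and positions come from RefSeq, matched by name for 1623 of 1907 entries; host genes come from GENCODE M21. The miRNAs named in the text are every member and, though they are not members, further entries with a member's guide seed, and the lists of stem cell and other markers. The rule for members and the lists were set with earlier results of these data known. Alternatives covered scale, filters, fold minimum, denominators, arms, shared entries and leaving out each library; leaving out the most abundant member from the share of all counts was added after the data were seen. Tests were run with scipy 1.17.1 in Python 3.11.15 (pandas 2.3.3, numpy 2.4.6) and plots drawn with matplotlib 3.10.9; edgeR 4.0.16 in R 4.3.3 supplied TMM factors only.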

Additional observations from a re-analysis of the deposited data

How the results depend on the processing

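At these depths few members could be counted well. Detection in both libraries covered 6 members at 10 counts, 13 at 3 counts and 1 at 50 counts. The members' mean share of all counts, 1.06%, was 1.49% without the most abundant entry in the total, 4.62% of the counts of miRNAs numbered up to 1000, and 0.427% without miR-92a-3p. Counting both arms of each hairpin gave mean family shares of 73.9% for miR-92, 15.3% for miR-17 and 3.68% for miR-19; without miR-92a-3p the guide-arm shares were 36.9%, 36.8% and 4.90%, and 21.4% for miR-18. Giving the shared entries to 1 cluster raised miR-17-92a from 8% to 69.2% or miR-106a-363 from 8.71% to 70.0%. Without the miR-92a hairpins the mean 5p share rose from 22.8% to 53.8% and the mean guide share fell from 90.1% to 80.7%; these moves follow from removing the entry with most counts. Without the fold minimum 25 miRNAs (10 as reported) and 18 seed families (6 as reported) differed between the libraries, none of them holding a member.

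With the sum over only those miRNAs numbered up to 1000 as the library size, every log2 difference moved by 0.31 towards library 2. There 1 member, miR-25-3p, and 1 member seed family, that of miR-92a-1-5p (Fisher's exact test, adjusted p = 0.034), were called. That seed holds no other entry with a sequence, so the family and the entry rest on the same counts. Tested as a miRNA on this scale, miR-92a-1-5p was not called (Fisher's exact test, adjusted p = 0.0506). The AUUGCAC family had an adjusted p of 0.00321 there (Fisher's exact test) at a ratio of 1.32, under the fold minimum. Differences near 0 changed sign on that scale in 5 of the 11 members tested, without a call: 0.29 for miR-92a-3p, 0.20 for miR-18b-5p, 0.22 for miR-19b-1-5p and miR-93-3p, and 0.10 for miR-93-5p. For miR-92a-3p the log2 difference was also positive under TMM scaling, at 0.0187, and when the 10 most abundant miRNAs were left out of the library size, at 0.029. The adjusted p of miR-25-3p (Fisher's exact test) ranged from 0.0105 on the first scale to 0.239 without a count filter. Leaving out 1 library moved no mean by more than its SD, which is fixed by the arithmetic of 2 values. The tests between libraries need both. No paired analysis was possible because both samples belong to the same group.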
